A study of Mus musculus with 4 samples.

Results

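Tripartite motif (TRIM) genes with known roles in antiviral defense (Trim14, Trim21, Trim25, Trim26, Trim30a, Trim30d, Trim34a, Trim12c and Trim56) were followed in lung endothelial cells (ECs) with and without induced deletion of ADAR1, the enzyme that turns adenosine into inosine in double-stranded RNA. Members were taken by gene symbol, which matched 9 of the 24421 genes in the count files and 1055 of the 1205261 positions in the deposited site table. The cells came from 2 male mice (EC1 and EC2) of 2 weeks, strain C57/BL6 as labelled, from separate litters. Both mice carried the inducible ADAR1 knockout (i-KO), so the control cells have the same genotype. From each mouse, a culture left without induction (CON) and a culture treated with tamoxifen (TM) gave 1 RNA library each, making 2 CON and 2 TM libraries. TM acted in the dish, on cultured ECs at an early passage, and no TM-treated culture without the knockout alleles was analysed here, so TM itself and the deletion cannot be told apart.

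Most TRIM proteins combine a RING finger, which attaches ubiquitin to other proteins, with a B-box, a coiled coil and often a target-binding PRY-SPRY domain. Many of them are switched on by interferon and act in the pathways that sense viral RNA and DNA, where they push signaling forward or end it. Inosine-free double-stranded RNA in cells that lack ADAR1 is known to trigger the RNA sensor MDA-5, so the comparison asks what levels these genes have in ECs after the deletion.

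The 4 libraries held 131796753 to 207323870 read pairs, of which 0.823% to 0.858% were counted on genes, 1095488 to 1778732 counts per library. Counts of most members were low. For the median gene, counts were only 0.262% to 0.375% of the read pairs that its exonic depth and length implied. Counts, and the fold changes and p-values from them, may therefore not stand for the RNA level of a gene. Counts are also given as CPM, the count after scaling each library to a common total by the TMM method of edgeR. The second readout was read depth at the listed sites, positions where a library showed A-to-G differences from the genome. A library lists a site only if it holds the altered base, and depth carries no strand. Adar itself had 9 (CON) and 47 (TM) counts in EC1 and 16 and 71 in EC2, a count over the whole gene that does not check a deletion of part of it. The study deletes exons 12 to 15, of which exons 12 to 14 were read here and exon 15 was left out. In exons 12 to 14 of the Adar transcript with 15 exons, EC1 CON listed 3 sites (median 145 reads) and EC1 TM none. EC2 CON had 169 reads at 1 site against a median of 65.5 at 2 sites with TM. In exons 1 to 11 the median depth went the other way, 152.5 and 664 reads in EC1 and 176 and 960 in EC2. Endothelial markers (13 genes) summed to 1475 to 1630 CPM in all libraries. Leukocyte markers (14 genes) summed to 109 to 128 CPM, with the same sum in CON and TM of each mouse to within 1 CPM and 9 of the 14 at no more than 3 counts in every library. Fibroblast and smooth muscle markers (13 genes) summed to 508 to 599 CPM and epithelial markers (9 genes) to 13.7 to 21.4 CPM. Among the endothelial markers Cldn5, a tight junction protein of ECs, was called lower in TM (log2 fold change -1.52, adjusted p = 0.0176, edgeR). In depth, the sums of the endothelial, fibroblast and smooth muscle, and leukocyte markers were lower in TM in both mice. Medians over the sites of each marker, scaled to 100000000 read pairs and summed, gave 24870 against 21100 for endothelial markers in EC1 and 31320 against 23080 in EC2, CON before TM. The median log2 ratio of TM over CON was -0.54 in EC1 and -0.61 in EC2 over the 12 endothelial markers measured, with Cldn5 at -1.30 and -2.03. Fibroblast and smooth muscle markers went from 598.9 to 207.5 in EC1 and from 954.4 to 324.3 in EC2. Leukocyte markers went from 565.8 to 466.2 and from 775.5 to 498.5, and epithelial markers from 35.32 to 31.87 and from 30.65 to 40.28. A marker with no listed exonic site added nothing to these sums, though its depth is unknown. This held for 8 to 12 of the 14 leukocyte markers and 7 or 8 of the 9 epithelial markers. Cd14 alone made up 527.5 and 444.6 of the leukocyte sums in EC1 and 746.9 and 458.2 in EC2, CON before TM. Fibroblast and smooth muscle markers without such a site went from 4 to 6 in EC1 and from 1 to 3 in EC2. Their sums therefore cover different genes in CON and TM. The part of the marker differences in the values of the TRIM genes was not tested.

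On chromosome 7 lie 5 of the members. In mm10 these are Trim21 at chr7:102557921-102565486, Trim34a at chr7:104244457-104262234, Trim12c at chr7:104338754-104353362, Trim30a at chr7:104409025-104465193 and Trim30d at chr7:104470014-104507849. The other four are spread over the genome, with Trim14 at chr4:46493781-46536141, Trim56 at chr5:137105644-137116209, Trim25 at chr11:88999376-89020293 and Trim26 at chr17:36837134-36859398. Of all windows of the length of a sequencing read in their longest transcripts, 0% in Trim21 and Trim25, 0.0472% in Trim26 and 0.218% in Trim56 also occur in another gene. Trim30a and Trim30d share 4.77% and 5.5% of their windows with each other, Trim12c shares 7.42% with Trim12a and Trim5, and Trim34a shares 41.6% with Trim34b and with Gm47248 on the opposite strand. In Trim14, 53.0% of the windows are also found in Nans, Gm22247 or Gm16731, which run on the opposite strand over 1650 of its 4338 exonic bases. Values of Trim14 and Trim34a are uncertain for that reason, since reads of these neighbours cannot be separated from theirs in depth. Whether reads of these neighbours also enter the counts of Trim14 and Trim34a was not tested.

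Promoters of the members were read after most of the members were seen to be higher in TM than in CON. The core of the interferon-stimulated response element, GAAANNGAAA, was searched on both strands from 250 bases before to 50 bases after each start (RefSeq, GRCm38.p6). It was found in 3.44% of 32851 promoters and in 7 of the 9 promoters of members. By gene, it was found in 3.99% of 27025 genes and in 6 of the 8 members that matched the table. Of 43 other TRIM genes in the table, 2 had it (Trim12a and Trim2). Of 21 genes that act with the members (listed further below), 3 had it (Ddx58, Ifih1 and Isg15). Trim25 and Trim56 had no match in this window. The 6 windows below run 5′ to 3′ on the strand of the gene, and capitals mark the match, which reads TTTCNNTTTC where it lies on the opposite strand.
Trim21, chr7:102565453-102565494: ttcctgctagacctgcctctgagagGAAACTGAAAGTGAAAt
Trim34a, chr7:104244442-104244486: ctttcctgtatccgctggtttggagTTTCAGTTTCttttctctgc
Trim12c, chr7:104353344-104353403: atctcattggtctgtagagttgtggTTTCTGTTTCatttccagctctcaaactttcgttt
Trim30a, chr7:104465195-104465254: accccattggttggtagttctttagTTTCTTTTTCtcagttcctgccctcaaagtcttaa
Trim30d, chr7:104507856-104507915: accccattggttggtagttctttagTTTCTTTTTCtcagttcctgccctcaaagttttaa
Trim26, chr17:36836961-36837026: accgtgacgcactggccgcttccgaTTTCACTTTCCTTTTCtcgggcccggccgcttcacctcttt
Overlapping pairs of matches make up the capitals of Trim21 and Trim26. The match begins 14 bases after the start in Trim21 and 11 bases after it in Trim34a, and 29, 36 and 41 bases before it in Trim12c, Trim30a and Trim30d. A second promoter of Trim30a, not shown, has its match 3 bases after the start. In Trim26 the nearer of its matches begins 154 bases before the start. A match is a run of letters and was not tested as a binding site. The members were picked for known antiviral roles and with earlier results of these data known. Their share with a match is thus description only, and its link to their values in TM was not tested.

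Trim25, the ubiquitin ligase known for activating the RNA sensor RIG-I, had higher read depth in TM in both mice and was at the edge of the threshold in counts. Its counts were 14 in CON and 43 in TM of EC1, and 17 and 58 in EC2. Both TM libraries lay above both CON libraries, at 35.95 ± 4.18 CPM against 13.98 ± 2.16 CPM (SD, n = 2 each). The log2 fold change was 1.35 (standard error 0.43) with an adjusted p of 0.0513 by edgeR's quasi-likelihood test, over the limit of 0.05. With the mouse as a block the same test gave an adjusted p of 0.0167 (0.445 by DESeq2 with the block), and over the 10 alternatives it ranged from 0.0167 to 0.445. At 6 exonic positions every library had the altered base in all or all but 1 of its reads, so the same positions could be read in each. Median depth over those 6 was 182 reads (CON) and 519.5 (TM) in EC1, and 268.5 (CON) and 763.5 (TM) in EC2. At chr11:89009210, in an exon, depth was 275 and 762 reads in EC1 and 354 and 1316 in EC2, with the TM library of each mouse well above its CON library. Summed over all exonic sites that CON and TM of a mouse both list (shared sites) and scaled to library size, depth in TM was 2.81 times that in CON in EC1 (8 sites) and 2.32 times in EC2 (9 sites). Intronic depth was also higher, 4.01 times in EC1 (18 sites) and 3.45 times in EC2 (23 sites).

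Trim14 is an adaptor at the mitochondrial antiviral signaling protein MAVS, downstream of RIG-I, and here its readouts parted. The counts were 45 against 28 in EC1 and 23 against 38 in EC2, CON before TM, which overlap between the groups. Its log2 fold change of -0.39 (standard error 0.42) did not pass (adjusted p = 0.683, edgeR's quasi-likelihood test, 0.484 to 0.997 over the alternatives). Leaving out the EC1 CON library turned it to 0.14. In exonic depth, CON had 1 listed site per library, of 10 reads in EC1 and 16 in EC2. With TM, EC1 had 14 sites (median 217.5 reads, lowest 96) and EC2 had 21 (median 256, lowest 70). All TM sites were thus deeper than the CON site of the same mouse, but no exonic site was listed in both libraries of a mouse and no ratio at equal positions could be formed.

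Trim26 ubiquitinates proteins of the IRF3 branch of the pathway and is known both to restrain and to promote interferon induction. The counts were 74 in CON and 133 in TM of EC1, and 58 and 202 in EC2. In CPM, TM was at 118 ± 3.84 and CON at 59.4 ± 9.14 (SD, n = 2 each), with no overlap. The log2 fold change was 0.98 (standard error 0.32) and missed the threshold at an adjusted p of 0.0535 by edgeR's quasi-likelihood test. With the mouse as a block it passed in edgeR (adjusted p = 0.00231) but not in DESeq2 (adjusted p = 0.168), and over the 10 alternatives it ranged from 0.00231 to 0.346. Median exonic depth at the sites each library listed was 167 reads at 12 sites in EC1 CON, 448 at 35 sites in EC1 TM, 229 at 17 sites in EC2 CON and 847 at 50 sites in EC2 TM. Scaled to library size that was 2.71-fold higher in EC1 and 2.56-fold higher in EC2. Only 1 and 2 exonic sites were listed in both libraries of EC1 and EC2, and these gave 2.81 and 2.98, in the same direction.

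Trim56, which ubiquitinates the DNA-sensing adaptor STING and takes part in signaling by Toll-like receptor 3, had higher depth in TM, while its counts were too few to place. It had 14 counts in CON and 14 in TM of EC1, and 0 and 31 in EC2. A count of 0 allows up to 2.74 CPM in EC2 CON, and the EC1 libraries had equal counts. Its log2 fold change of 1.28 had a standard error of 0.72 (adjusted p = 0.331, edgeR's quasi-likelihood test, 0.00504 to 0.997 over the alternatives). That lowest value arose without the EC1 CON library, where 31 and 14 counts stood against 0. At 3 positions altered in all reads of all libraries, the median depth was 102 reads (CON) and 274 (TM) in EC1, and 127 (CON) and 396 (TM) in EC2. Scaled depth at the same positions was 2.595 times higher with TM in EC1 and 2.16 times in EC2. Each of the 3 positions was deeper in TM in both mice, with folds from 2.04 to 2.94.

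Trim21 is the cytosolic receptor for antibodies on incoming virus, and it targets IRF factors for degradation as well. Its counts were 1 against 4 in EC1 and 0 against 28 in EC2, CON before TM, with most of the reads in EC2 TM. It fell under edgeR's filter on low counts. Pooled over the mice, TM was 24.8 times CON, with a counting interval (95%, exact) of 4.15 to 1010. At chr7:102559975, in an exon, all reads carried the altered base and depth was 19 in CON and 210 in TM of EC1, and 23 and 269 in EC2. Over the 3 exonic sites listed in all libraries, the scaled depth was 10.3-fold higher in EC1 and 9.22-fold higher in EC2. Intronic sites gave 5.36-fold (5 sites) and 4.61-fold (4 sites), from no more than 4 reads at any CON site.

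Trim30a, an interferon-induced gene known to dampen NF-kappaB signaling by degrading TAB2 and TAB3, had the largest depth ratio at shared sites among the members measured. Counts missed it nearly completely, at 0 (CON) and 1 (TM) in EC1, and 0 (CON) and 18 (TM) in EC2. The count difference rests on EC2 TM, since the 1 count of EC1 TM lies under the floor of 3 counts, and no fold is given. At chr7:104409344, in the 3′ UTR, every read was altered and the depth was 14 against 434 in EC1 and 23 against 714 in EC2, CON before TM. A second such 3′ UTR position, chr7:104410716, had 14, 326, 21 and 907 reads in the same order. The scaled depth at shared exonic sites was 29.8-fold higher in EC1 (3 sites) and 24.6-fold higher in EC2 (4 sites). The number of listed exonic sites went from 4 to 41 in EC1 and from 5 to 71 in EC2. Its implied read pairs, the median depth times exonic length over the bases of a read pair, were 8426 in EC1 TM and 18600 in EC2 TM, of which the counts held 0.0119% and 0.0968%.

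Trim30d, a paralog next to Trim30a, was seen in depth only after TM. Counts were 5 in CON and 14 in TM of EC1, and 0 and 13 in EC2, and the pooled TM count was 4.19 times CON (exact 95% counting interval 1.59 to 13.9). Neither CON library listed an exonic site. With TM, EC1 listed 14 (median 22 reads) and EC2 listed 11 (median 30), far below the depth of Trim30a in the same libraries. Where a CON library lists nothing its depth is not known, so no fold can be given.

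Trim34a is the mouse relative of TRIM34, a neighbour and partner of the retroviral restriction factor TRIM5 in human cells. It had 0 (CON) and 4 (TM) counts in EC1 and 0 and 10 in EC2. Its mean CPM in TM was 1.72 times the floor of 3 counts per CON library, which leaves out counting error in TM. Median exonic depth at its own listed sites was 30 reads (CON) and 165 (TM) in EC1, and 1 (CON) and 274 (TM) in EC2. At the only exonic position listed in all 4 libraries, in the 5′ UTR, there were 8 and 6 reads in CON and TM of EC1 and 5 and 15 in EC2, so the pairs differed in direction (0.757 and 2.08 times, scaled). The higher depth at own listed sites thus rests on positions that differ between CON and TM.

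Trim12c, a member of the mouse TRIM5 group, was the member that passed the count test. It had 237 counts against 821 in EC1 and 171 against 1171 in EC2, CON before TM. Both TM libraries were far above both CON libraries, at 704 ± 54.3 CPM against 183 ± 38.8 CPM (SD, n = 2 each). The log2 fold change was 1.94 with a standard error of 0.30 (adjusted p = 2.64e-05, edgeR's quasi-likelihood test), and the adjusted p stayed between 3.16e-20 and 0.000667 over the 10 alternatives. Scaled exonic depth at shared sites was 3.87 times higher in EC1 (4 sites, 88 reads in CON and 337 in TM) and 2.54 times higher in EC2 (10 sites, 402 and 1475 reads). Outside repeats, too few shared sites were left to measure it. Its counts made up 18.7% to 37.3% of the read pairs that its depth implied, a share reached by 3.42% to 4.45% of all genes measured, while the median gene was at 0.262% to 0.375%.

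**Figure D1:**
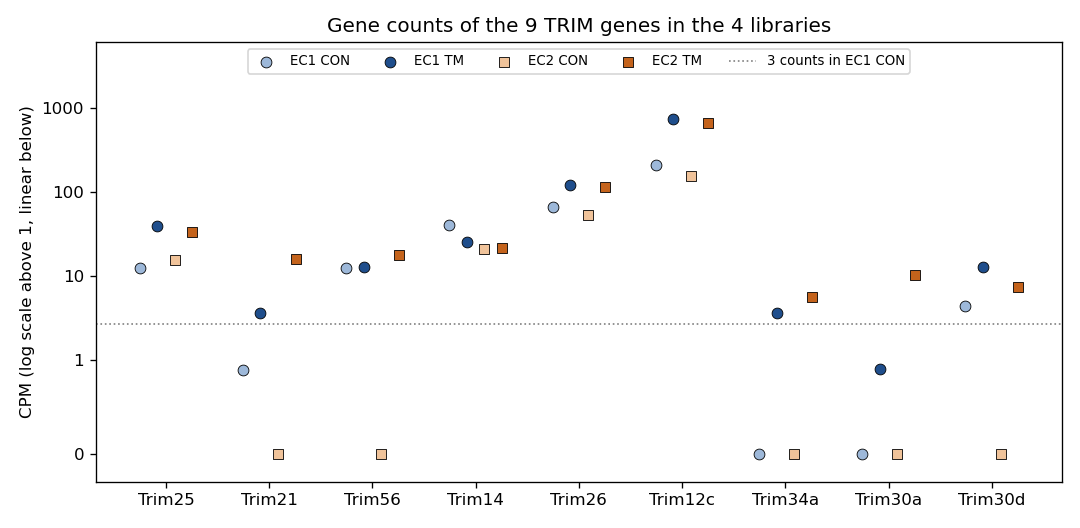
CPM (TMM-normalized, log scale above 1 and linear below) of each TRIM gene in the 4 libraries, circles for mouse EC1 and squares for EC2, pale for CON and dark for TM; each point is 1 library and the dotted line is the level of 3 counts in EC1 CON. Trim12c, Trim26 and Trim25 separate by treatment, Trim14 does not, and 5 genes have a CON library at 0.

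Across the family, 5 of the 9 members could be tested by counts, and 1 of the 5 (Trim12c) was called higher in TM. Of all 7899 tested genes, 347 were called higher, or 4.39%, and 265 lower, or 3.35%. No member was called lower by edgeR or by DESeq2, and the 3 tested members at an unadjusted p under 0.05 were all higher, where 10.4% of all tested genes were higher at that level. With the mouse as a block in edgeR, Trim25 and Trim26 were called as well, making 3 of 5. That setting called more genes in general, 600 of the 7899 higher and 584 lower. DESeq2 with the same block called only Trim12c among 4 members tested, with adjusted p of 0.445 for Trim25 and 0.168 for Trim26. Both TM libraries exceeded both CON libraries in CPM in 4 of the 5 tested members, the exception being Trim14, against 25.3% of all tested genes. The median log2 fold change was 1.28 over the 5 tested members and 0.0017 over all tested genes, and a member had to pass the filter on low counts to be among the 5.

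In exonic depth at shared sites, 5 members had at least 3 such sites in both mice (Trim21, Trim25, Trim30a, Trim12c and Trim56), and all 5 were at least 2-fold higher in TM in both mice, against 4.98% of 1506 genes measured. Only these genes could be measured this way, and with 2 pairs no test was made. At own listed sites, 7 members were measured and 7 were past 2-fold in both mice, against 3.95% of 6836 genes. Trim26 and Trim34a were the additions, and the values of Trim34a and Trim21 in EC2 (190-fold and 235-fold) rest on a CON median of 1 read. In introns, 2 members could be measured at shared sites, Trim21 and Trim25, and both were past 2-fold in both mice, against 2.33% of 2145 genes. All 9 members had more listed exonic sites in TM than in CON in both mice, against 27.7% of the 14389 genes with any listed exonic site. By these ratios the members fell into a group of about 2 to 4-fold (Trim25, Trim26, Trim12c and Trim56) and a group of 9-fold and above (Trim21 and Trim30a), and neighbours within the first group differed by no more than the 2 mice did for Trim12c. Trim21 and Trim30a had few reads in CON, which leaves their folds less certain than their direction. In bulk RNA, a higher level in all cells and a much higher level in some of them cannot be told apart.

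**Figure D2:**
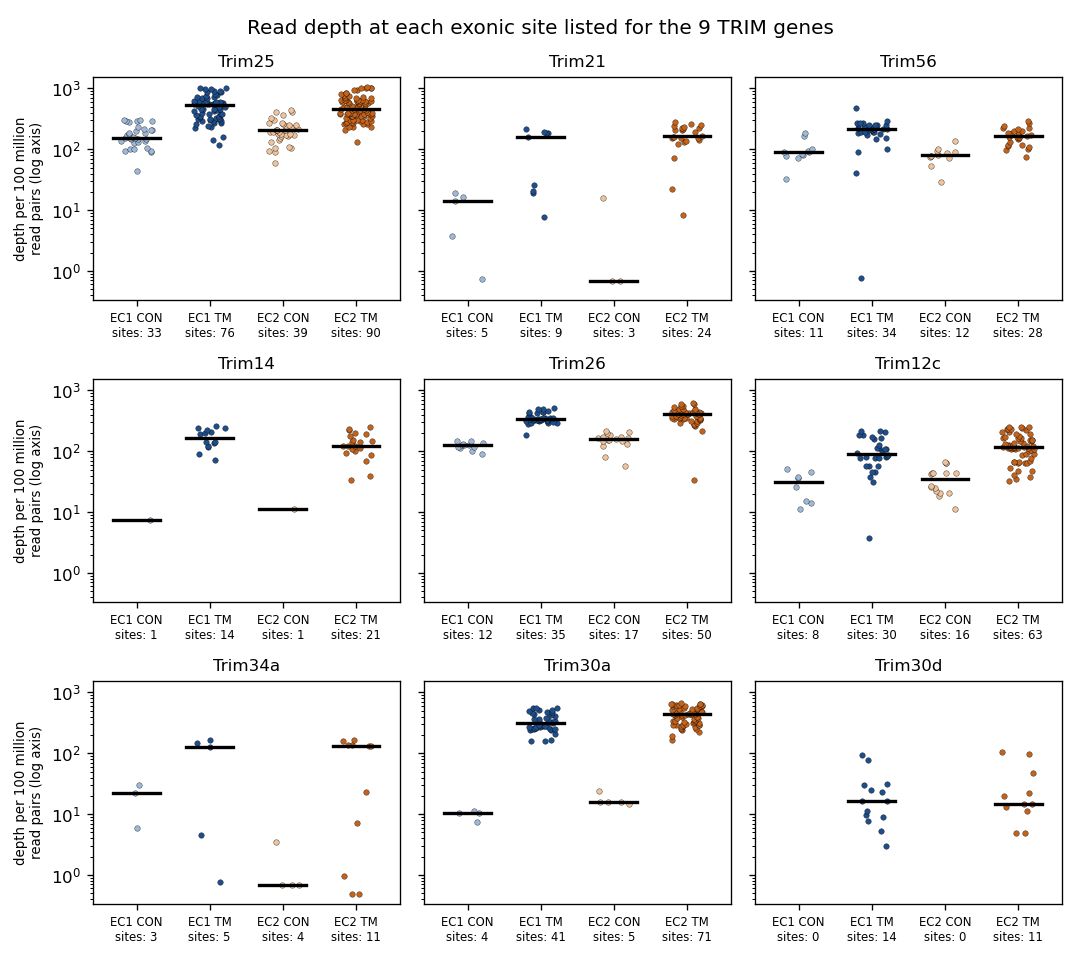
Read depth, scaled to 100000000 read pairs and on a log axis, at every exonic or UTR site that a library lists for each TRIM gene; each point is a site, black bars are medians, and the number of sites is under each library. The medians of TM libraries lie above those of the CON library of the same mouse in the 8 genes with CON sites, and Trim30d has no CON site.

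**Figure D3:**
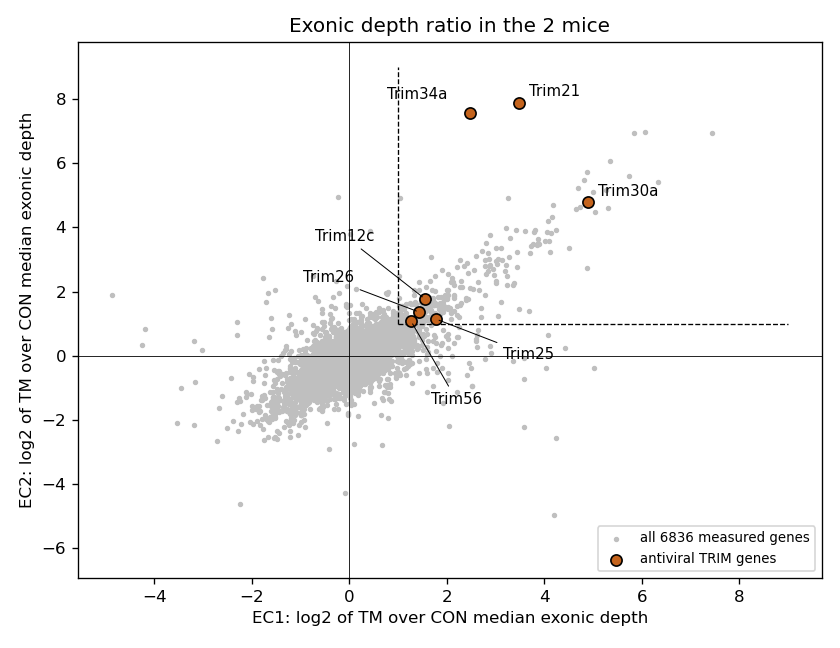
Log2 ratio of TM over CON median exonic depth at own listed sites in mouse EC1 (x axis) and EC2 (y axis), for the 6836 genes measured in both (gray) and the 7 TRIM genes among them (orange); dashed lines mark 2-fold in both mice. The 7 TRIM genes all lie in the upper right field, with Trim21 and Trim34a high in EC2 where the CON median is 1 read.

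Among the rest of the TRIM family no gene passed the count test. Of 58 other TRIM genes in the count files, 20 were tested and 0 were called by edgeR, with 5 at an unadjusted p under 0.05 and 0 called by DESeq2. Their median log2 fold change was -0.01. The 3 with the most counts were Trim41 (log2 fold change 0.45, adjusted p = 0.42), Trim15 (0.98, adjusted p = 0.0568) and Trim44 (1.01, adjusted p = 0.0624). With the mouse as a block edgeR called Trim15, Trim44 and Trim2 higher. In exonic depth at own listed sites, 0 of the 16 others measured, each with at least 3 sites per library, were past 2-fold in both mice. Genes with fewer sites went both ways in scaled median depth, CON before TM. Trim34b went from 21.04 to 138.9 in EC1 and from 28.22 to 72.11 in EC2, and Trim46 from 15.03 to 69.8 and from 25.78 to 73.8. Trim65 went from 11.65 to 5.311 and from 11.15 to 7.476. The difference between the members and the other TRIM genes was not itself tested. The members were picked for known antiviral roles and with earlier results of these data known. Their shares and medians beside those of other genes are thus description only.

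Of 27 genes that act with the members, 19 were tested and 3 were called, all higher in TM. They were Isg15, the ubiquitin-like modifier that Trim25 attaches to proteins (log2 fold change 4.12, adjusted p = 6.1e-06, edgeR), Ifih1, the gene of MDA-5 (4.97, adjusted p = 2.64e-05), and Zc3hav1, the zinc-finger antiviral protein that needs Trim25 (2.32, adjusted p = 0.00026). Counts of Isg15 were 1 against 44 in EC1 and 6 against 126 in EC2, CON before TM. Those of Ifih1 were 2 against 36 and 0 against 53. With so few CON counts, these folds are less certain than their direction. Isg15 was at a median exonic depth of 210 reads against 5215.5 in EC1 and 275 against 9390 in EC2, CON before TM. Ddx58, the gene of RIG-I and the target of Trim25, was not called (0.17, adjusted p = 0.857), while its median exonic depth was 156, 812.5, 276 and 1320 reads in the same order. Among the partners that were not called, those with the most counts were Usp14, which removes ubiquitin and is recruited by Trim14 (0.23), Irf3, a target of Trim26 (-0.07), and Ube2n, a ubiquitin-conjugating enzyme (0.02). Dhx58, the RNA-binding regulator LGP2, was called lower with the mouse as a block in edgeR (log2 fold change -1.20, adjusted p = 0.0141, against 0.0527 without it). The median over the 19 was 0.17. In depth at own listed sites, 6 of 20 partners measured were past 2-fold in both mice, against 3.95% of 6836 genes. They were Ddx58, Zc3hav1, Ifih1, Dhx58, Isg15 and Irf8.

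Few positions at the members counted as edited, and their share of the listed sites was near the share over all sites. A site counted as edited in a library where 5 or more reads covered it, 3 or more were altered and the altered share lay between 0.05 and 0.95. By this measure the members held 4 sites in EC1 CON and 10 with TM, and 4 in EC2 CON and 16 with TM, in all 21 positions in 5 genes (Trim12c, Trim30d, Trim25, Trim14 and Trim30a). These were 3.03%, 2.16%, 2.56% and 2.66% of the sites listed for the members, against 3.15%, 2.61%, 3% and 2.84% of all sites listed. The tally includes Trim25 positions altered in nearly all reads. At chr11:89007941 these were 10 of 11 reads in EC1 CON and all 52, 13 and 60 reads in EC1 TM, EC2 CON and EC2 TM. At chr11:89013704 they were 4 of 4 and 14 of 15 in EC1 and 3 of 3 and 14 of 17 in EC2, CON before TM. Whether such positions are differences in the DNA was not tested. The only Trim30a position, chr7:104488030 (4 of 36 reads, EC2 TM), is labelled distal to Trim30a and lies within the span of Trim30d. Of the 21 positions, 7 lay in 3′ UTRs, 6 in introns, 3 in exons, 3 in 5′ UTRs and 2 in distal regions. In SINE repeats, the usual substrate of ADAR1, lay 4 of them, and each passed in a single library. They were chr11:89007941 (above) and chr11:89000858 (4 of 53 reads, EC2 TM) in Trim25, and chr4:46508623 and chr4:46508642 (3 of 24 and 3 of 27, EC2 TM) in Trim14. No SINE position had a rate called higher in CON.

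Rates higher in CON by at least 0.05 were found at 3 member sites in EC1 and 3 in EC2, with none shared between the mice. These were 2.27% and 1.92% of the member sites listed in the CON libraries, near the share over all sites, 1.82% in EC1 and 1.75% in EC2. Rates higher in TM were found at 6 sites in EC1 and 12 in EC2, with 5 shared, or 1.29% and 2% of member sites against 1.25% and 1.29% of all sites. A site that a library does not list enters with a rate of 0 and unknown depth. Where CON and TM both covered the site with 5 or more reads, only 1 member site was higher in TM. By Fisher's exact test on reads (two-sided), 0 member sites passed after adjustment over all sites listed in both libraries, and 0 of 57 in EC1 and 2 of 72 in EC2 had an unadjusted p under 0.05.

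Sites in Trim12c and Trim30d carried most of these calls. The positions below are shown with the bases around them, read on the strand of the gene from GENCODE vM21 transcripts, with the altered adenosine in capitals.
Trim12c 3′ UTR, chr7:104339306: gtgtattcttAgtgatcactt
Trim30d exon, chr7:104472620: atgactctacAtgcaaggaac
Trim30d 5′ UTR, chr7:104507781: tctggcctgtAtttgttcctc
At the Trim12c position 2 of 20 reads (CON) and 7 of 75 (TM) were altered in EC1, and 8 of 36 and 14 of 141 in EC2. The share was higher in CON in EC2 only, at 0.222 (95% Wilson interval 0.117 to 0.381) against 0.0993 (0.0601 to 0.16), and these intervals overlap. In a simple repeat of the same 3′ UTR, at chr7:104339847, the shares were 8 of 15 (CON) and 17 of 42 (TM) in EC1 and 6 of 16 and 26 of 68 in EC2. At another position of this 3′ UTR, chr7:104339031, 5 of 61 reads (CON) and 3 of 239 (TM) were altered in EC2 (Fisher's exact p = 0.0102, adjusted p = 1.0), while EC1 listed it in TM only, with 1 of 147. All of these Trim12c positions had altered reads in both TM libraries. The Trim30d exon position was listed in TM only, with 9 of 40 reads in EC1 and 21 of 98 in EC2. The 41 bases centred on it also occur unaltered in Trim30a transcripts, so its reads cannot be assigned with certainty. The Trim30d 5′ UTR position was likewise listed in TM only, at 12 of 31 and 14 of 41 reads. Trim30d had no listed exonic site in CON at all, so its rates there are unknown. In Trim25, a 3′ UTR position in a simple repeat, chr11:89017317, was altered in 10 of 125 reads in EC1 CON and in 14 of 597 in EC2 TM, and was not listed in the other libraries. Intervals cover counting error only.

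**Figure D4:**
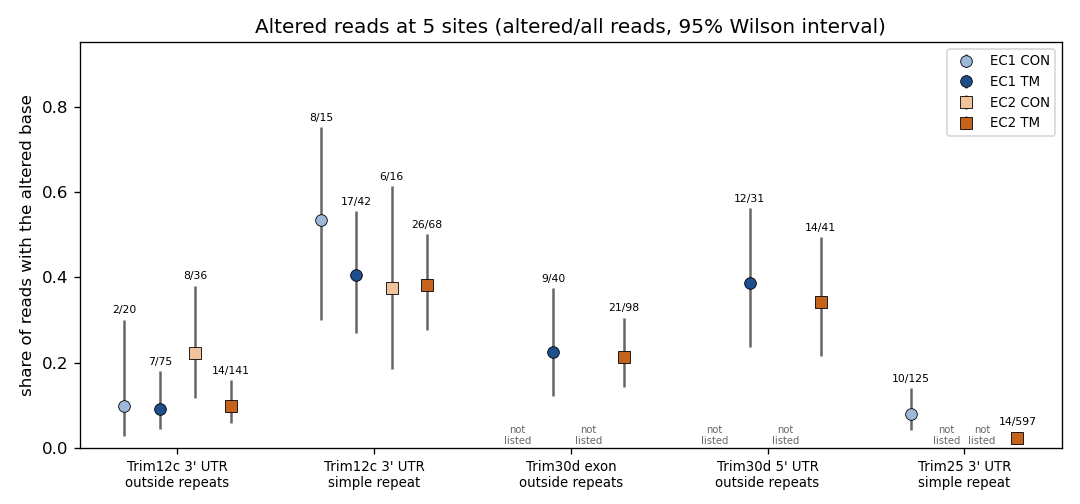
Share of reads with the altered base at 5 sites of Trim12c, Trim30d and Trim25 in each library, circles for EC1 and squares for EC2, pale for CON and dark for TM; bars are 95% Wilson intervals and the numbers are altered over all reads. The intervals of CON and TM overlap at both Trim12c sites, and the Trim30d sites are listed in TM libraries only.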

How the data were processed

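RNA libraries of 4 cultures, a CON and a TM culture from each of 2 mice, were analysed. Reads had been trimmed with Trimmomatic 0.38, aligned to mm10 with STAR 2.6.1a and counted with HTSeq 0.11.2 by the authors, per the labels and the study's methods. The deposited count files hold raw read-pair counts per gene. Rows that name no gene (no feature, not unique) held 99.1% or more of each file and were left out of gene totals. The deposited site table gives the reference reads, the altered reads and their fraction at each position in each library. The study states default settings for its tools, and the default of HTSeq counts a pair only when its first read lies on the strand of the gene, while the library kit marks strand. How this acts on the counts, and which transcripts the counted pairs came from, was not tested. Members and gene lists were chosen with earlier results of these data known. All 9 members are named, and of other TRIM genes and partners those called and the 3 others with most counts. Genes were tested with edgeR 4.0.16 in R 4.3.3 (filterByExpr, TMM, quasi-likelihood, Benjamini-Hochberg at 0.05). DESeq2 1.42.0 was an alternative. The replicate numbers pair the samples because both cultures came from the same mouse, and the EC1 deviations from the group means correlated between CON and TM at 0.163 over genes. The p-values rest on 2 mice. Depth was scaled to 100000000 read pairs. Promoters, transcripts and sites were handled in Python 3.11.15 with scipy 1.17.1. Alternatives covered the tool, block, normalization, filters, thresholds, sites used and each library left out.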

Additional observations from a re-analysis of the deposited data

Results flagged for a closer look

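Trim14 went opposite ways in the mice by counts, with a log2 CPM ratio of TM over CON of -0.65 in EC1 and 0.04 in EC2. The difference between the mice was not tested. Trim34a did so in depth at its only shared exonic site, where TM was at 0.757 times CON in EC1 and 2.08 times in EC2, from 5 to 15 reads per library. This difference was not tested either. Groups of 2 libraries are too small to look for outliers.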

How the results depend on the processing

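Trim12c was called higher under every alternative run. Of all genes, 636 of 17237 were called without a filter on low counts, and 506 of 6077 with at least 10 counts in every library. The members called were 3 with edgeR and the mouse as replicate block (adding Trim25 and Trim26), 3 without a filter (adding Trim21, adjusted p = 0.00649, and Trim30a, adjusted p = 0.0393), 3 with at least 10 counts in every library and 1 to 2 with a library left out. Without EC1 CON the second was Trim56, and without EC1 TM it was Trim21. All genes called were 612 in the main analysis, 1184 with that replicate block, 363 by DESeq2, 399 by DESeq2 with the block, and 436 to 574 with a library left out. Other TRIM genes called were 3 with the block, 1 without a filter, 2 with at least 10 counts, and 0 to 2 with a library left out, and partners called were 1 with at least 10 counts, and 4 (Dhx58 lower, 3 higher) with the replicate block in edgeR or with DESeq2 size factors in edgeR. The log2 fold change of Trim14 ranged from -0.78 to 0.14 with a library left out, and was above 0 only without EC1 CON. Intronic depth placed 4 of 5 members past 2-fold with at least 1 shared site, against 2.74% of 4131 genes. With at least 10 it placed 1 of 1, against 2.29% of 918 genes. No member had 10 shared exonic sites in both mice, so that setting gave no value. After seeing the data, exonic depth was also taken outside repeats (4 of 4 members past 2-fold, against 5.05% of 1327 genes). It was likewise taken at sites altered in over 95% of reads in all libraries (4 of 5, all but Trim34a, against 3.77% of genes). Member sites with a rate higher in CON (6 in either mouse) were 3 in each mouse alone, 3 at a rate of 0.10 to 0.90 with a difference of 0.10, and 0 by Fisher's exact test on reads. Those higher in TM (13) were 6 to 12 in a mouse alone, 6 with at least 5 altered reads, 1 when CON and TM both had 5 or more reads and 0 by Fisher's test. The block changed no other call of a member. The causes were not tested.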

Other observations

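The genes whose counts were most like the mean pattern of the 5 tested members over the 4 libraries, by Euclidean distance of centred log2 CPM, were Tead4 (0.0839), Slc25a42 (0.0931), Slc35c1 (0.143), Rpph1 (0.156) and Aprt (0.16). None of these 5 was called by edgeR, with adjusted p from 0.0593 for Rpph1 to 0.352 for Slc35c1. Tead4 went from 10 to 17 counts in EC1 and from 4 to 25 in EC2. Dhx58 had readouts in opposite directions: 49 counts in EC1 CON and 27 in EC1 TM (log2 fold change over both mice -1.20, adjusted p = 0.0527, edgeR, and 0.0141 to 0.404 over the alternatives, called lower with the replicate block in edgeR and with DESeq2 size factors at 0.0498), but a median exonic depth of 29 and 506 reads in the same libraries. Trim34b, a paralog of Trim34a, had 0 counts in both CON libraries and 9 and 14 in EC1 TM and EC2 TM.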
